A study of Arabidopsis thaliana with 12 samples.

Results

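SAUR genes (small auxin up RNA) were followed in etiolated Arabidopsis thaliana seedlings. The 57 members examined are those whose locus identifier is on a fixed list, out of 31916 genes named in the deposited tables and of 78 genes with a SAUR product name in RefSeq. All 57 are annotated as SAUR-like auxin-responsive proteins, and all are listed in each of the 3 tables. Of the members, 31 lie in 6 genomic clusters, named here by the shared start of their identifiers, and 26 lie elsewhere.

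SAUR genes encode short proteins and are among the first genes induced by auxin. The proteins of the SAUR19 subfamily bind and inhibit clade D phosphatases of the PP2C type, which otherwise dephosphorylate and switch off plasma membrane proton pumps. A more active pump acidifies the cell wall and promotes cell expansion, and in the dark this drives hypocotyl growth. Some members are known to respond to light in opposite ways in the hypocotyl, which stops elongating, and in the cotyledons, which open and expand.

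The study holds 12 RNA-seq libraries from whole seedlings in 4 groups of 3, and 1 FPKM value per gene and group is deposited. FPKM counts fragments per kilobase of a transcript relative to all mapped fragments, so levels can be set between genes. Wild type seedlings of the Columbia accession (Col) stayed in the dark, or were moved to white light and sampled after 6 h. Seedlings of both mutants, det1-1 and pifq, stayed in the dark. All groups shared 3 days at 4 °C, 12 h of light and 4 days of darkness. By these labels the light group was 6 h older than dark wild type, and no dark group was kept for those 6 h. Light and the added 6 h of age and time of day therefore cannot be told apart. DET1 is a repressor of photomorphogenesis, and det1-1 is known as a partial loss-of-function allele. The mutant pifq lacks PIF1, PIF3, PIF4 and PIF5, bHLH factors that promote growth in the dark. Each table sets 1 group against dark wild type, and the same dark wild type libraries serve in all 3 comparisons.

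The targeted genes and light markers were read first. In the pifq table, PIF3 was 0.802 FPKM against 30.2 FPKM in wild type, and PIF5 was 1.39 against 9.44 FPKM. PIF1 (23.7 against 19.2 FPKM) and PIF4 (20.9 against 20.5 FPKM) were not lower, so their levels do not check that label. DET1 was 16.7 FPKM in det1-1 against 15.1 FPKM, and its level does not check the label, since that allele need not lower its transcript. CHS, which begins flavonoid synthesis, was 1809 FPKM after light against 4.88 FPKM in wild type kept dark. It was 411 against 4.53 FPKM in det1-1 and 8.26 against 4.76 FPKM in pifq. PORA, another light marker, was 3.08 against 178 FPKM after light and 3.72 against 161 FPKM in det1-1. In pifq PORA was 181 against 173 FPKM. The tables hold no values per library, read counts or p-values, so no value below has an SD, the depth is unknown, and no difference was tested. In whole seedlings, fewer cells of a type and less RNA per cell cannot be told apart.

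A member is called higher or lower where the 2 values of its table were at least 2-fold apart. Pairs of FPKM values give dark wild type first and the compared group second. Log2 values are those of group over dark wild type. Analysed members have a single entry and pass 4 conditions. The authors' deposited log2 ratio was not 0 where the 2 values differed, taken to mean that their program had compared them. Both values were above 0, the higher value reached 1 FPKM, and the dark wild type values agreed within 1.5-fold between tables after scaling. The last condition could not fail for a gene with a single entry in only 1 table.

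Light for 6 h came with lower transcripts for most SAUR members. Of 46 analysed members, 28 were lower (60.9%, where 10.6% of 15095 analysed genes were lower) and 5 were higher (10.9%, where 12.5% of all were higher). The median log2 value of the members was -1.73, beside 0.01 for all analysed genes, and it was -2.55 when agreement of the dark wild type between tables was not required. At 4-fold, 22 members were lower, where 2.94% of all genes were, and 1 was higher, where 4.17% of all genes were. Of the 46, 9 were under 1 FPKM in light and so were analysed through their dark level. Summed over the 53 members with a single entry and values above 0, the FPKM was 1240.5 in the dark and 461 in light.

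In dark det1-1 seedlings most members lay within 2-fold of wild type. Of 46 analysed, 12 were lower (26.1%, where 9.71% of 14867 genes were) and 5 were higher (10.9%, where 17.3% of all were). The median log2 value was -0.47, beside -0.03 for all analysed genes. Summed over 55 members, the FPKM was 1072.5 in dark wild type and 997 in det1-1. At 4-fold, 4 members were lower, where 1.73% of all genes were, and 2 were higher, where 6.81% were.

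In dark pifq seedlings 28 of 47 analysed members were lower (59.6%, where 13.4% of 15291 genes were) and 4 were higher (8.51%, where 13% of all were). The median log2 value was -1.27, beside 0.01 for all analysed genes. Summed over 55 members, the FPKM was 1289 in dark wild type and 636 in pifq. At 4-fold, 8 members were lower in pifq, where 3.79% of all genes were, and 1 was higher, where 3.86% were. The comparisons share their dark wild type libraries, so the values for each member are given side by side.

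**Figure D1:**
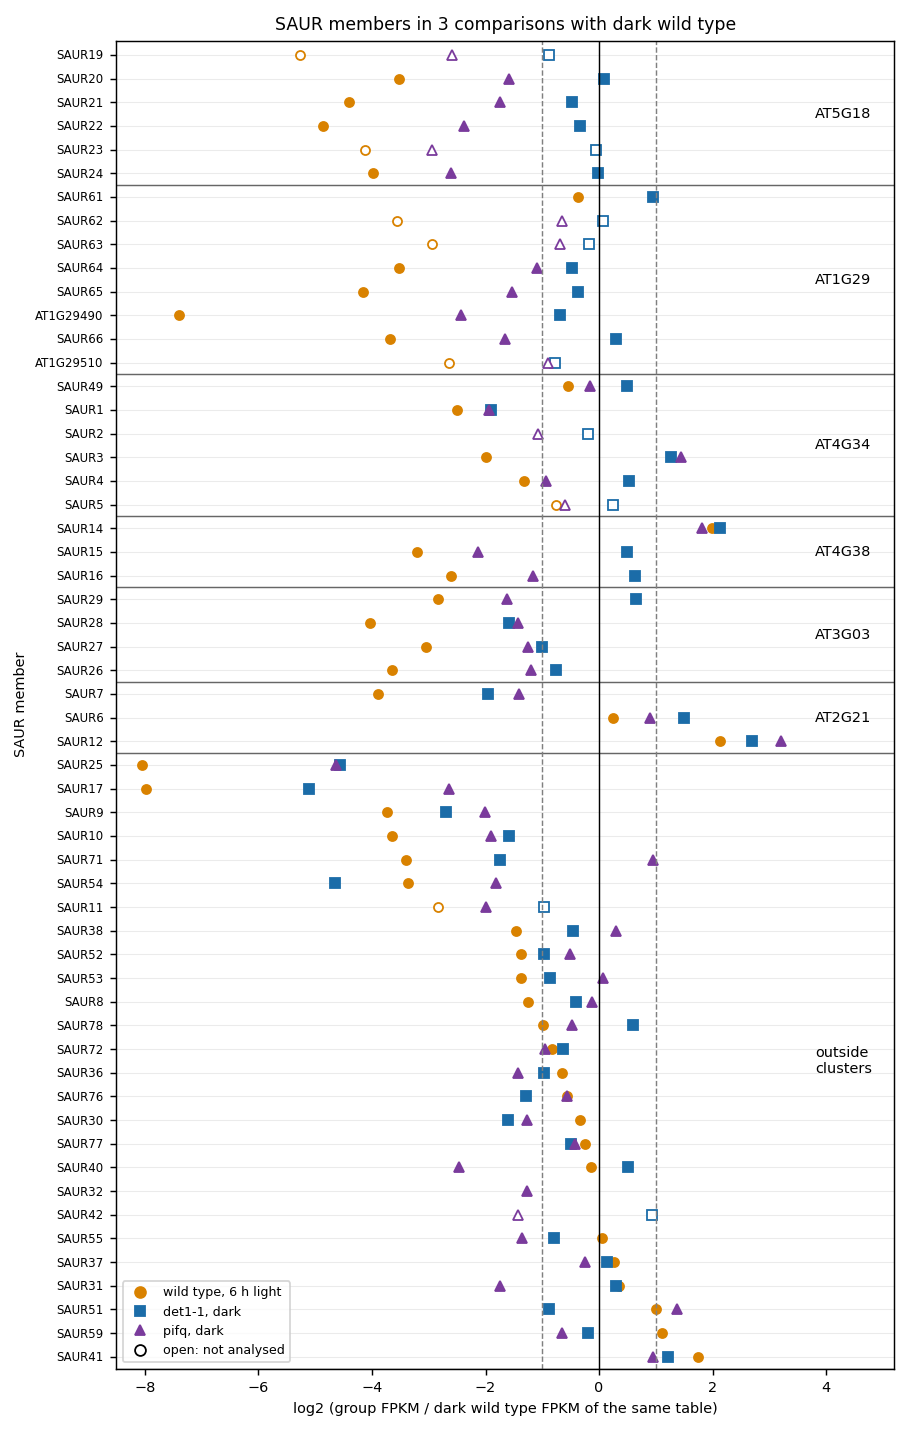
Log2 of the group FPKM over the dark wild type FPKM of the same table (x axis) for each SAUR member with a single entry and values above 0 (y axis), grouped by genomic cluster; circles are light-treated wild type, squares det1-1 and triangles pifq, open symbols were not analysed, and dashed lines mark 2-fold. Circles of the AT5G18 cluster lie between -5.27 and -3.53, while its squares lie between -0.89 and 0.08.

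**Figure D2:**
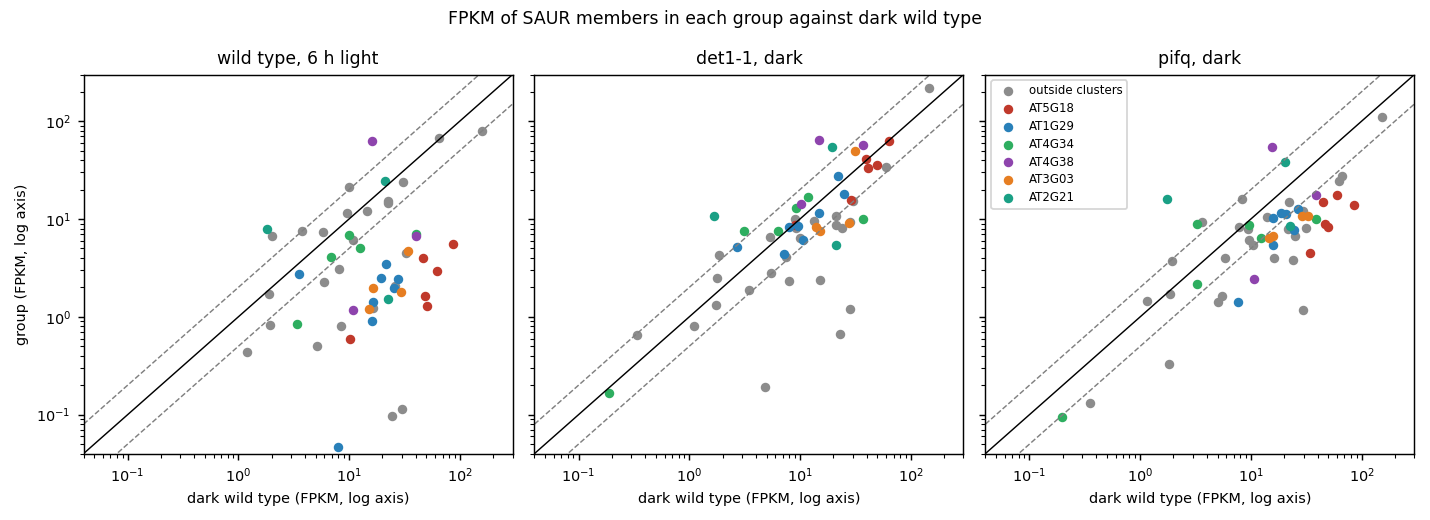
FPKM of the SAUR members in dark wild type (x axis, log scale) and in the compared group (y axis, log scale), 1 panel per comparison, with 1 point per member coloured by cluster, a solid line of equal values and dashed lines at 2-fold. AT5G18 members lie far below the line in light, close to it in det1-1 and between these in pifq, with sums of 16.0, 197 and 68.5 FPKM.

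The AT5G18 cluster holds SAUR19, SAUR20, SAUR21, SAUR22, SAUR23 and SAUR24, the subfamily whose proteins are known to promote hypocotyl elongation. It spans 21.5 kb of chromosome 5 (5962773 to 5984308, TAIR10.1). SAUR24, the highest of them in the dark, was 87.7 and 5.56 FPKM with light, 63.2 and 62.6 FPKM with det1-1, and 84.9 and 13.9 FPKM with pifq. SAUR22 was 48.1 and 1.65 FPKM with light, 41.5 and 33.0 FPKM with det1-1, and 46.7 and 8.99 FPKM with pifq. Log2 values for this pair were -3.98 and -4.86 in light, -2.61 and -2.38 in pifq, and -0.01 and -0.33 in det1-1. SAUR21 was 61.9 and 2.94 FPKM with light, 50.0 and 36.1 FPKM with det1-1, and 59.9 and 17.8 FPKM with pifq. SAUR20 was 46.2 and 4.01 FPKM with light, 39.2 and 41.5 FPKM with det1-1, and 44.7 and 15.0 FPKM with pifq. All 4 analysed members were thus lower in light and in pifq, and none of the 4 was called in det1-1. Their median log2 values were -4.19 for light, -0.17 for det1-1 and -2.06 for pifq.

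SAUR19 and SAUR23 were not analysed, because the dark wild type differed between tables. SAUR19 was 50.1 and 1.30 FPKM with light, 29.0 and 15.6 FPKM with det1-1, and 49.4 and 8.24 FPKM with pifq. SAUR23 was 10.3 and 0.594 FPKM with light, 8.98 and 8.68 FPKM with det1-1, and 34.5 and 4.51 FPKM with pifq. The same dark libraries thus gave SAUR23 10.3 FPKM in one table and 34.5 FPKM in another. Members of this cluster are near copies, with coding sequences 87.7% to 95.2% identical over 15 pairs. Of the 32-base stretches of their transcripts, 9.11% to 38.4% occur elsewhere in the genome, so reads could be divided between copies. SAUR23, with the widest disagreement between tables, has the smallest share of such stretches in the cluster. With its det1-1 level scaled and set against the dark wild type of the light table, SAUR19 had a log2 value of -1.57 in place of -0.89, and the other 5 lay between -0.67 and -0.04. The sum over the cluster also differed between tables in dark wild type. It was 304 and 16.0 FPKM with light (log2 -4.25), 232 and 197 FPKM with det1-1 (log2 -0.23), and 320.1 and 68.5 FPKM with pifq (log2 -2.23).

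**Figure D3:**
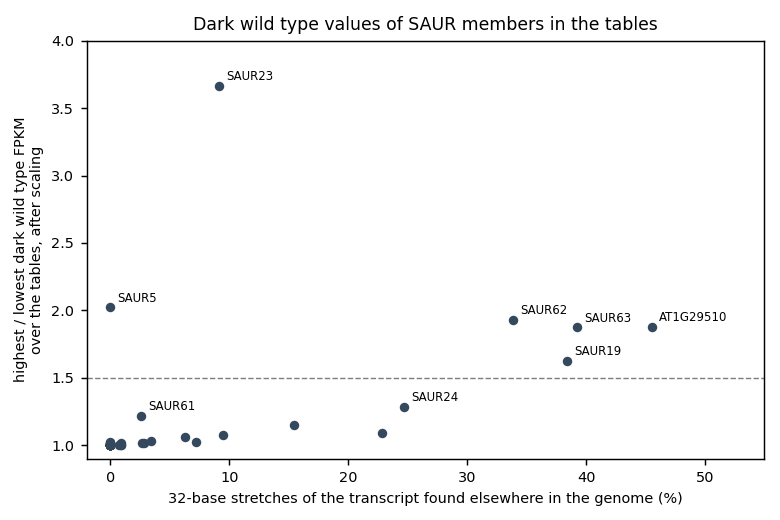
For SAUR members with a single entry, the highest over the lowest dark wild type FPKM across the tables after scaling (y axis) against the percentage of its 32-base stretches found elsewhere in the genome (x axis), with a dashed line at the 1.5-fold limit. SAUR23, SAUR5, SAUR62, SAUR63, AT1G29510 and SAUR19 lie above the line, and the members without repeated sequence other than SAUR5 lie close to 1. SAUR32, with a single entry in the pifq table only, lies at 1 by construction.

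The AT1G29 cluster holds 8 members over 21.9 kb of chromosome 1 (10301377 to 10323239), among them SAUR63, whose overproduction is known to lengthen hypocotyls. SAUR65, with no 32-base stretch found elsewhere, was 16.2 and 0.910 FPKM with light, 15.0 and 11.6 FPKM with det1-1, and 15.7 and 5.44 FPKM with pifq. SAUR64 was 27.6 and 2.41 FPKM with light, 25.2 and 18.1 FPKM with det1-1, and 26.7 and 12.6 FPKM with pifq. SAUR66 was 25.4 and 1.98 FPKM with light, 22.3 and 27.3 FPKM with det1-1, and 24.7 and 7.81 FPKM with pifq. These 3 were lower in light and in pifq, with log2 values of -3.52 to -4.15 and of -1.09 to -1.66, and lay between -0.48 and 0.29 in det1-1. AT1G29490 was 7.89 and 0.0465 FPKM with light, 7.10 and 4.38 FPKM with det1-1, and 7.63 and 1.42 FPKM with pifq. Its log2 value in light of -7.41 rests on a level close to 0 and was -3.09 with 1 FPKM added to both groups. AT1G29490 and AT1G29510 both bear the name SAUR68 in RefSeq and are called by locus here.

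SAUR62, SAUR63 and AT1G29510 were not analysed, because their dark wild type in the det1-1 table was well under that in the others. SAUR62 was 16.5 and 1.40 FPKM with light, 7.91 and 8.33 FPKM with det1-1, and 16.0 and 10.2 FPKM with pifq. SAUR63 was 19.3 and 2.51 FPKM with light, 9.53 and 8.40 FPKM with det1-1, and 18.7 and 11.5 FPKM with pifq. AT1G29510 was 21.5 and 3.46 FPKM with light, 10.6 and 6.17 FPKM with det1-1, and 20.8 and 11.2 FPKM with pifq. Against the dark wild type of the light table, the log2 values in det1-1 were -0.87 for SAUR62, -1.09 for SAUR63 and -1.69 for AT1G29510, in place of 0.07, -0.18 and -0.78. Whether the latter 2 are lower in det1-1 thus depends on the table that supplies dark wild type. These 3 share 33.9% to 45.6% of their stretches with sequence elsewhere, and the member that each shares most with is another of the 3. SAUR61 stood apart from its neighbours, at 3.53 and 2.72 FPKM with light and 2.69 and 5.21 FPKM with det1-1, and had 2 entries in the pifq table. SAUR63 and SAUR64 also overlap the annotated gene AT1G29435. Summed over the cluster, the FPKM was 138 and 15.4 with light (log2 -3.16), 100.4 and 89.4 with det1-1 (log2 -0.17), and 130.3 and 60.2 with pifq over the 7 members with 1 entry (log2 -1.11).

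In the AT3G03 cluster all 4 members were lower in light and in pifq. It spans 7.05 kb of chromosome 3 (976715 to 983768) and holds SAUR26, SAUR27, SAUR28 and SAUR29, a subfamily tied to growth responses to temperature. SAUR28 was 29.7 and 1.80 FPKM with light, 27.5 and 9.12 FPKM with det1-1, and 28.8 and 10.7 FPKM with pifq. SAUR27 was 16.3 and 1.96 FPKM with light, 15.1 and 7.51 FPKM with det1-1, and 15.8 and 6.67 FPKM with pifq. Both were also lower in det1-1, though SAUR27 only just, with a log2 value of -1.01. SAUR26 was 15.2 and 1.21 FPKM with light, 14.0 and 8.30 FPKM with det1-1, and 14.7 and 6.41 FPKM with pifq. SAUR29 was 34.0 and 4.75 FPKM with light, 31.4 and 49.4 FPKM with det1-1, and 33.0 and 10.7 FPKM with pifq. In det1-1 the neighbours therefore differed, from a log2 value of -1.59 for SAUR28 to 0.66 for SAUR29. Their coding sequences are 78.5% to 86.3% identical, but at most 0.858% of their 32-base stretches occur elsewhere, and their dark wild type agreed between tables.

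The AT4G38 cluster held members that moved in opposite directions within 6.31 kb of chromosome 4 (18124978 to 18131284). SAUR14, a member known to be induced by light in cotyledons, was 16.0 and 63.4 FPKM with light, 14.8 and 64.8 FPKM with det1-1, and 15.5 and 54.3 FPKM with pifq. It was higher in all 3 groups, with log2 values of 1.99, 2.13 and 1.81. SAUR15, also known as the auxin-induced SAUR-AC1, was 10.9 and 1.18 FPKM with light, 10.1 and 14.2 FPKM with det1-1, and 10.6 and 2.43 FPKM with pifq. SAUR16, which promotes cotyledon opening, was 40.4 and 6.64 FPKM with light, 37.4 and 57.8 FPKM with det1-1, and 38.9 and 17.4 FPKM with pifq. SAUR15 and SAUR16 were lower in light and pifq, and at log2 values of 0.49 and 0.63 in det1-1. Because SAUR14 moved the other way, the summed FPKM of these 3 members was 67.3 and 71.2 with light and 65.0 and 74.2 with pifq, close to equal. With det1-1 it was 62.4 and 137. SAUR13 (AT4G38825) has the same identifier start but is not on the list, and these sums leave it out. It was 24.2 and 0.150 FPKM with light, 22.5 and 14.0 FPKM with det1-1, and 23.4 and 7.37 FPKM with pifq.

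SAUR14 and SAUR15 start from the 2 ends of a single stretch of 497 bases and are transcribed away from each other, and SAUR28 and SAUR27 have the same arrangement over 509 bases. The first pair moved in opposite directions in light, and both genes of the second pair were lower. The 250 bases before each annotated start are shown for these 4 genes, 5′ to 3′ on the strand of the gene, from the RefSeq TAIR10.1 genome. SAUR14 is read from chr4:18125560-18125809 (minus strand), SAUR15 from chr4:18125807-18126056 (plus), SAUR28 from chr3:980563-980812 (minus) and SAUR27 from chr3:980822-981071 (plus). Capitals mark CACATG or its reverse complement CATGTG, the E-box variant that PIF proteins can bind, and the auxin response elements TGTCTC and TGTCGG on either strand.
SAUR14: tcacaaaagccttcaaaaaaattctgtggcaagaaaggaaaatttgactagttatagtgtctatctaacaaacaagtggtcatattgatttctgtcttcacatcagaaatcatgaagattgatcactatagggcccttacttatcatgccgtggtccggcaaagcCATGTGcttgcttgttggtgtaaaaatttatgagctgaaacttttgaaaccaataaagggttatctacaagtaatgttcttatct
SAUR15: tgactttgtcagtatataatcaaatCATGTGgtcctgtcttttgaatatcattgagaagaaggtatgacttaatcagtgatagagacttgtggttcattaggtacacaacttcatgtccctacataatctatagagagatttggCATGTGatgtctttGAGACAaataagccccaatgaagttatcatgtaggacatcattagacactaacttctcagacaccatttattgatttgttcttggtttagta
SAUR28: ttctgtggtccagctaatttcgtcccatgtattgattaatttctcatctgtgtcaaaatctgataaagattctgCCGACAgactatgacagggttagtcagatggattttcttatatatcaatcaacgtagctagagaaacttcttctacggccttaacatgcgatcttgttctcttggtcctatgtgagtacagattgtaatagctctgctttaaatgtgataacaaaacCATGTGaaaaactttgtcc
SAUR27: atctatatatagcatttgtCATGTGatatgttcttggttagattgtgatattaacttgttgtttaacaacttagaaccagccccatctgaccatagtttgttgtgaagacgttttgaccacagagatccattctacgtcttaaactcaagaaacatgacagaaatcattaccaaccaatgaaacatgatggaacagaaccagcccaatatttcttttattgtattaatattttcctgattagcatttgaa
Both genes of the first pair hold CACATG on the strand opposite to the gene, SAUR14 1 time and SAUR15 2 times, although SAUR14 was higher and SAUR15 lower in light. SAUR15 also holds TGTCTC, which SAUR14 lacks in this window. Further members start away from each other and are not shown here. They are SAUR22 and SAUR23 (692 bases between), SAUR20 and SAUR21 (1566 bases), and SAUR2 and SAUR3 (1614 bases).

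Over the family, CACATG on either strand was in the 250 bases before the start of 28 of 57 members (49.1%), and in 11.1% of 27443 protein-coding genes. With 500 bases it was in 57.9% of members and 21.1% of all genes, and with 1000 bases in 68.4% and 37.7%. The 39 matches lay 10 to 243 bases before the start, with a median of 104. All 8 members of the AT1G29 cluster and all 4 of the AT3G03 cluster held it, as did 3 of 6 in AT5G18. Neighbouring copies share descent, so these are not independent, and among the 26 members outside the clusters 6 held it (23.1%). Of 28 members lower in light 17 held it, as did 2 of 5 that were higher, 2 of 13 that were neither, and 7 of 11 not analysed. These counts include the neighbouring copies. Outside the clusters, 3 of 10 members lower in light held it, and 1 of 13 other analysed members. In det1-1 it was held by 5 of 12 lower, 3 of 5 higher and 13 of 29 other analysed members. In pifq it was held by 15 of 28 lower, 3 of 4 higher and 3 of 15 other analysed members. The counts for the mutants also include neighbouring copies. The members that were higher are few, and SAUR14 and SAUR3 are among them in both mutants. The G-box CACGTG was in 1 member, SAUR59, and in 6.49% of all genes. TGTCTC was in 7 members (12.3%, beside 10.9% of all genes) and TGTCGG in 2 (3.51%, beside 4.16%). No 2 of these motifs overlapped in a member, and the upstream sequence had a median GC content of 33.2% in members and 31.2% in all genes. A match is a description of letters, and binding was not measured. SAUR65, from the cluster in which all members hold CACATG, and SAUR12, a member that was higher in all 3 groups and has none of the motifs, are shown in the same way, from chr1:10308247-10308496 (minus strand) and chr2:9088976-9089225 (plus).
SAUR65: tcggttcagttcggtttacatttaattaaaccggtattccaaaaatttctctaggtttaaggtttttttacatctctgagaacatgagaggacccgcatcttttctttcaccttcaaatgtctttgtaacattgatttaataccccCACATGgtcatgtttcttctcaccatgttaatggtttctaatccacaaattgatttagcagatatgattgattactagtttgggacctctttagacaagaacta
SAUR12: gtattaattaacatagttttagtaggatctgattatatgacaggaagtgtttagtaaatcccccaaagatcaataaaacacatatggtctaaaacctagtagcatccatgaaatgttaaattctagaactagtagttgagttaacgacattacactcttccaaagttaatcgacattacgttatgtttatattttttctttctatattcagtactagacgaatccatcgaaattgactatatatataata

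The AT2G21 cluster of 6.15 kb on chromosome 2 (9083906 to 9090052) also held members that moved apart. SAUR12 was 1.80 and 7.84 FPKM with light, 1.67 and 10.8 FPKM with det1-1, and 1.75 and 16.1 FPKM with pifq. It had the largest log2 value of the members analysed in each comparison, 2.12, 2.70 and 3.21. SAUR7 was 22.6 and 1.52 FPKM with light, 21.0 and 5.43 FPKM with det1-1, and 22.4 and 8.40 FPKM with pifq. SAUR6 was 20.9 and 24.7 FPKM with light, 19.4 and 54.4 FPKM with det1-1, and 20.3 and 37.9 FPKM with pifq. SAUR7 was lower in all 3 groups and SAUR6 was higher in det1-1. The annotated transcripts of SAUR6 and SAUR7 overlap on the same strand, so reads in the overlap belong to neither with certainty.

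The AT4G34 cluster of 7 members on chromosome 4 (16577180 to 16599568) was mixed. SAUR1 was 39.9 and 7.06 FPKM with light, 37.0 and 9.91 FPKM with det1-1, and 38.7 and 10.1 FPKM with pifq, and was lower in all 3 groups. SAUR3 was 3.38 and 0.848 FPKM with light, 3.13 and 7.51 FPKM with det1-1, and 3.27 and 8.85 FPKM with pifq, so it was lower in light and higher in both mutants. SAUR4 was 12.7 and 5.09 FPKM with light, 11.7 and 17.0 FPKM with det1-1, and 12.3 and 6.43 FPKM with pifq. Of its values only that in light passed 2-fold. SAUR49 was 9.96 and 6.80 FPKM with light, 9.25 and 13.0 FPKM with det1-1, and 9.68 and 8.66 FPKM with pifq. SAUR5 was 6.84 and 4.06 FPKM with light, 6.34 and 7.52 FPKM with det1-1, and 3.28 and 2.17 FPKM with pifq, and it was left out for its dark wild type. Neither of these reached 2-fold in any table. SAUR50, which promotes cotyledon opening with SAUR16, was listed in 2 entries per table and not analysed. One entry was 153 and 48.9 FPKM with light, 141 and 66.6 FPKM with det1-1, and 148 and 101 FPKM with pifq. The other was 73.1 and 62.7 FPKM with light, 63.4 and 54.4 FPKM with det1-1, and 68.7 and 67.8 FPKM with pifq. The entries thus differ in light and det1-1, and the tables do not say what separates them. SAUR2 was at most 0.203 FPKM in any group and listed at 0 in light.

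**Figure D4:**
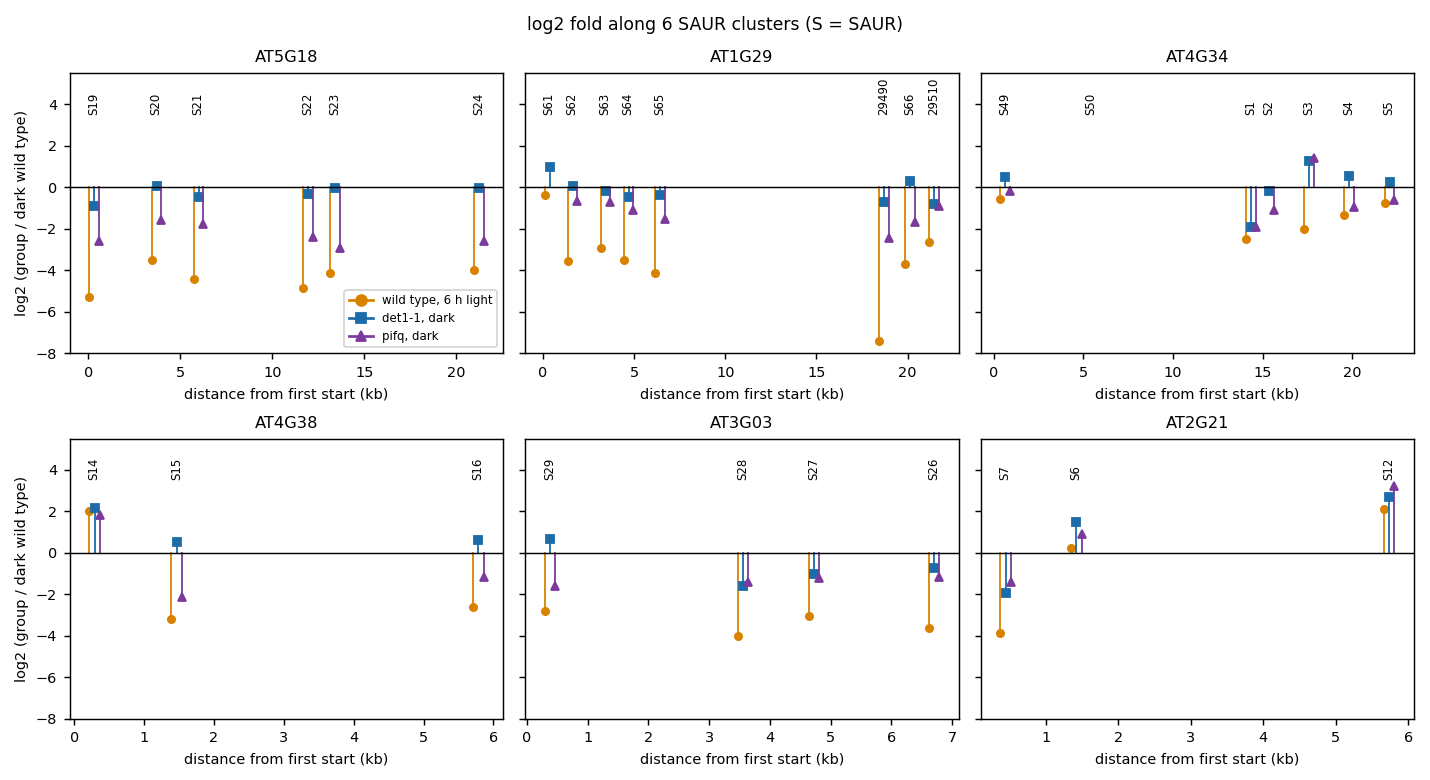
Log2 of group over dark wild type FPKM (y axis) along the 6 SAUR clusters, 1 panel each. The x axis is the distance of each gene's centre from the first gene start (kb). Stems end in a circle for light, a square for det1-1 and a triangle for pifq. SAUR50 in all groups and SAUR61 in pifq have 2 entries and no stem. SAUR2 in light, listed at 0, has no stem either. Genes not analysed are drawn too. Stems of the AT5G18 panel for light and pifq all point down, while AT4G38 and AT2G21 hold SAUR14 and SAUR12, whose stems all point up.

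Outside the clusters, SAUR25 and SAUR17 had the lowest log2 values in light, -8.05 and -7.98. SAUR25 (AT4G13790) was 30.3 and 0.115 FPKM with light, 28.1 and 1.19 FPKM with det1-1, and 29.4 and 1.18 FPKM with pifq. SAUR17 (AT4G09530), which acts in the apical hook of dark seedlings, was 24.6 and 0.0974 FPKM with light, 22.8 and 0.662 FPKM with det1-1, and 23.8 and 3.83 FPKM with pifq. Both were lower in all 3 groups, and with 1 FPKM added to both values the log2 values were still -3.73 and -3.84 in det1-1. In det1-1 no analysed member of the AT5G18 and AT1G29 clusters reached 2-fold, but SAUR19, SAUR63 and AT1G29510 did against the dark wild type of the light table. SAUR54 was 5.16 and 0.499 FPKM with light, 4.79 and 0.191 FPKM with det1-1, and 5.01 and 1.43 FPKM with pifq. SAUR9 was 16.5 and 1.24 FPKM with light, 15.3 and 2.36 FPKM with det1-1, and 16.0 and 3.97 FPKM with pifq. SAUR10 was 26.0 and 2.09 FPKM with light, 24.1 and 8.05 FPKM with det1-1, and 25.3 and 6.78 FPKM with pifq. These 3 were lower in every group too. SAUR11 (32.6 and 4.53 FPKM with light, 30.2 and 15.5 FPKM with det1-1) was taken as not compared by the authors' program in those tables and left out of their counts. It was lower in pifq, at 31.7 and 8.01 FPKM.

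SAUR71, SAUR72 and SAUR41 belong to a subfamily that promotes cell expansion, and they did not move alike. SAUR71 was 8.52 and 0.806 FPKM with light, 7.90 and 2.34 FPKM with det1-1, and 8.30 and 16.1 FPKM with pifq. SAUR41 was 2.001 and 6.67 FPKM with light, 1.86 and 4.31 FPKM with det1-1, and 1.94 and 3.75 FPKM with pifq. SAUR72 was 10.8 and 6.11 FPKM with light, 10.1 and 6.43 FPKM with det1-1, and 10.5 and 5.45 FPKM with pifq. SAUR71 was lower in light and det1-1, SAUR41 was higher in both, and SAUR72 passed 2-fold in none. SAUR59 (9.92 and 21.3 FPKM) and SAUR51 (3.74 and 7.52 FPKM, a log2 value of 1.01) were the other members higher in light outside the clusters. In det1-1 they were 9.20 and 8.06 FPKM and 3.47 and 1.88 FPKM. In pifq SAUR51 was higher, at 3.63 and 9.38 FPKM, and SAUR59 was 9.62 and 6.08 FPKM.

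Several members that light left within 2-fold were lower in a mutant. SAUR30 was 30.4 and 24.0 FPKM with light, 28.2 and 9.24 FPKM with det1-1, and 29.4 and 12.1 FPKM with pifq. SAUR55 was 64.5 and 66.6 FPKM with light, 59.8 and 34.4 FPKM with det1-1, and 62.6 and 24.6 FPKM with pifq. SAUR36, known for promoting leaf senescence, was 22.7 and 14.5 FPKM with light, 21.1 and 10.7 FPKM with det1-1, and 21.5 and 7.99 FPKM with pifq. SAUR30 passed 2-fold in both mutants, and SAUR55 and SAUR36 in pifq. SAUR31 was 5.80 and 7.36 FPKM with light, 5.38 and 6.62 FPKM with det1-1, and 5.53 and 1.65 FPKM with pifq. SAUR76 was 22.7 and 15.4 FPKM with light, 21.1 and 8.68 FPKM with det1-1, and 22.1 and 14.9 FPKM with pifq. SAUR31 was thus lower in pifq, and SAUR76 in det1-1. SAUR32, which acts in the apical hook, had 2 entries in the light table (50.9 and 59.4 FPKM, 17.5 and 27.0 FPKM) and in the det1-1 table (47.2 and 29.3 FPKM, 16.1 and 12.9 FPKM). In the pifq table it had 1 entry, 66.9 and 27.7 FPKM, and was lower. Agreement of its dark wild type between tables could not be checked, because the other tables split it.

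SAUR78 had the highest dark level among members with a single entry. It was 158 and 79.9 FPKM with light, just short of 2-fold, 147 and 221 FPKM with det1-1, and 153 and 110 FPKM with pifq. SAUR77 was 14.4 and 12.1 FPKM with light, 13.3 and 9.49 FPKM with det1-1, and 14.0 and 10.5 FPKM with pifq. SAUR37 was 9.67 and 11.6 FPKM with light, 8.96 and 9.90 FPKM with det1-1, and 9.38 and 7.89 FPKM with pifq. None of the 3 passed 2-fold in any table. SAUR53, which promotes organ elongation, was 8.11 and 3.12 FPKM with light, 7.52 and 4.11 FPKM with det1-1, and 7.89 and 8.31 FPKM with pifq. SAUR52 was 5.95 and 2.28 FPKM with light, 5.46 and 2.78 FPKM with det1-1, and 5.80 and 4.04 FPKM with pifq. Both were lower in light alone among the 3 calls, although SAUR52 was at a log2 value of -0.98 in det1-1. The members SAUR8, SAUR38 and SAUR40 stayed under 5 FPKM in every group. SAUR8 (1.94 and 0.819 FPKM) and SAUR38 (1.19 and 0.434 FPKM) were lower in light, and SAUR40 (1.83 and 0.332 FPKM) was lower in pifq. SAUR42 was at most 0.648 FPKM and listed at 0 in light.

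Genes through which SAUR proteins act, and through which SAUR genes are induced, were counted in the same way. Of 26 such genes 22, 22 and 23 were analysed for light, det1-1 and pifq. In light 4 were lower and 0 higher, where 10.6% of all genes were lower and 12.5% higher. In each mutant 1 was lower and 1 higher, where 9.71% and 17.3% of all genes were in det1-1 and 13.4% and 13% in pifq. The clade D phosphatase gene AT5G02760 (PP2C-D1, a target of SAUR17 and SAUR50) was 17.7 and 19.0 FPKM with light, 16.4 and 60.3 FPKM with det1-1, and 17.0 and 124 FPKM with pifq. Another of this clade, AT5G66080, was 17.0 and 3.77 FPKM with light, 15.7 and 5.61 FPKM with det1-1, and 17.1 and 4.85 FPKM with pifq. The first was thus higher in both mutants and the second was lower in all 3 groups. The phosphatase gene AT3G17090 was lower in light, at 68.9 and 31.9 FPKM, as were the auxin receptor genes AFB2 (38.9 and 19.2 FPKM) and GRH1, also called AFB1 (29.5 and 12.1 FPKM). The proton pump gene HA2 was 681 and 385 FPKM with light and 620.0 and 318 FPKM with det1-1, under 2-fold. In the pifq table HA2 had 2 entries and was not analysed. One entry was 1509.71 and 293 FPKM (log2 -2.37), and the other was 626 and 498 FPKM (log2 -0.33). None of the 4 pump genes analysed in each table, 5 activating ARF factors or 2 BZR factors passed 2-fold in any table.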

How the data were processed

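RNA-seq of 12 libraries in 4 groups of 3 was used. The submitters' processing notes name TopHat, Cufflinks and TAIR10, and their versions, settings, strand handling and treatment of multiply mapped reads are not given in the sources used here. Each of 3 tables deposited by the authors holds, for a gene, its FPKM in dark wild type and in 1 other group, with their log2 ratio. The headers name no unit, so FPKM was taken from Cufflinks and the values. Replicate values are not in these tables, so no p-value was computed and the limma fit planned for values per library was not run.

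Log2 values were computed from FPKM with no pseudocount in Python 3.11.15 with pandas 2.3.3. They differed from the authors' deposited log2 ratio by at most 0.00741 where both values were above 0 and that ratio was not 0. Only to test agreement, dark wild type values were scaled to the light table by the median ratio. Entries without a gene name stayed out. They held 10.8% of the summed FPKM in dark wild type and 7.25% in light, 15.3% in dark wild type and 1.79% in det1-1, and 10.5% in dark wild type and 1.05% in pifq. The code for folds and calls was run on simulated tables with known folds, which tests the arithmetic and not the calls made here.

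Gene models, names and sequences come from RefSeq TAIR10.1, and all 57 members matched. Coordinates are of that build and not of the deposited tables. Coding identity is from global alignments (Biopython 1.88). The submitters' gene models may differ.

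The members, the gene lists and the 2-fold call were chosen with earlier results of these data known. Every member reaching 5 FPKM in any group is named with its values, except that the pifq entries of SAUR61 are not printed. Members of the pathway list past 2-fold are named with at least the values that passed it. Among the label checks, CHS and PORA are given for every table. The PIF genes are given for the pifq table only, except the dark wild type of PIF4. DET1 is given only for the table of its own mutant. HA2 and the members under 5 FPKM were named after their values were seen. Alternatives were other pseudocounts, minimum levels, call sizes and scalings, no agreement between tables, and leaving out members with at least 10% of 32-base stretches elsewhere.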

Additional observations from a re-analysis of the deposited data

How the results depend on the processing

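No result has a replicate check, and leaving out a library could not be done. No paired analysis was possible because the columns carry no replicate numbers. Of 75 recomputed counts and medians, 61 stayed within 1.5-fold of the reported value. With 5 FPKM added to both groups, the number of members higher was 1 in light, 3 in det1-1 and 2 in pifq, and the median log2 value in light was -0.85. That median was -2.60 with a minimum of 5 FPKM and -2.55 without the agreement between tables, which add or drop members by construction. With 1.5-fold as the call, 20 members were lower and 9 higher in det1-1, and 7 were higher in pifq. With 4-fold, 1 was higher in light, 4 were lower and 2 higher in det1-1, and 8 were lower and 1 higher in pifq. A pair of further measures of the clusters, and det1-1 set against the dark wild type of the light table, were added after the data were seen. The log2 ratio of summed FPKM of the 3 listed AT4G38 members was 0.081 in light and 0.19 in pifq, against medians of -2.60 and -1.16. SAUR14 was higher while its listed neighbours were lower, and SAUR13 is not in the sum. Analysed members under 1 FPKM in the compared group numbered 9 in light, 3 in det1-1 and 1 in pifq. Such levels carry, among others, the folds of AT1G29490, SAUR17 and SAUR25 in light, and the depth behind them is unknown. SAUR54 in det1-1 was 0.191 FPKM, and its log2 value of -4.64 became -2.28 with 1 FPKM added to both groups.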

Other observations

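A further 21 genes have a SAUR product name and are not among the members described, and 20 of them are in each table. Of those analysed, 4 of 15 were at least 2-fold lower and 3 higher in light, 5 of 14 lower and 4 higher in det1-1, and 6 of 15 lower and 4 higher in pifq. Over all analysed genes, 10.6% were lower and 12.5% higher in light, 9.71% and 17.3% in det1-1, and 13.4% and 13% in pifq. The genes below were chosen after their values were seen, and each pair gives dark wild type first. SAUR13 (AT4G38825), whose identifier places it beside SAUR14, was 24.2 and 0.150 FPKM with light, 22.5 and 14.0 FPKM with det1-1, and 23.4 and 7.37 FPKM with pifq. SAUR46 (AT2G37030) was 2.54 and 4.26 FPKM with light, 2.36 and 39.1 FPKM with det1-1, and 2.47 and 12.7 FPKM with pifq. SAUR33 (AT3G61900) was 21.6 and 12.8 FPKM with light, 20.0 and 8.97 FPKM with det1-1, and 20.5 and 2.84 FPKM with pifq. SAUR57 (AT3G53250) was 9.68 and 12.0 FPKM with light, 8.97 and 16.8 FPKM with det1-1, and 10.96 and 50.1 FPKM with pifq. SAUR75 (AT5G27780) was 4.61 and 0.280 FPKM in the light table but listed at 0 in both groups of the det1-1 table, although the dark wild type libraries are the same.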
